A study of Mus musculus with 18 samples.

Results

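The genes of 9 adipokines, Lep, Adipoq, Retn, Retnla, Nampt, Apln, Rarres2, Serpina12 and Agt, were described across 3 fat depots of the mouse. They were chosen by symbol from the 45151 gene symbols present in every sample, and all 9 were found. RNA had been sequenced from 6 samples of inguinal white adipocytes (iWAT), 6 of epididymal white adipocytes (eWAT) and 6 of brown adipose tissue (BAT). All mice were wild type males of the strain C57BL/6J, aged 16 weeks and fed regular chow. White fat had been digested with collagenase and its floating layer of mature adipocytes kept, whereas BAT was frozen as whole tissue. In every comparison with BAT, the depot and the way it was prepared cannot be told apart.

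Adipokines are secreted proteins through which fat tissue signals to other organs. Leptin, encoded by Lep, is released by white adipocytes roughly in proportion to their lipid stores and lowers food intake by acting on neurons of the hypothalamus, while adiponectin, encoded by Adipoq, raises fatty acid oxidation and insulin sensitivity in liver and muscle. The others act on immune cells, blood vessels and metabolism, and several of them are also made by cells of fat other than adipocytes. Brown adipocytes burn lipid to make heat and are known to make little leptin.

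The RPKM values (reads per kilobase of the listed row, scaled to the total of reads) rested on 22929576 to 32141048 reads per iWAT sample, 26607733 to 34048018 per eWAT sample and 26706786 to 34512470 per BAT sample. For iWAT and BAT a row is a gene with merged exons, and for eWAT it is a single transcript, so that the kind of row cannot be told apart from the depot where eWAT is compared. The most-read transcript was used for eWAT. Its row was the same as the merged row for Retnla, Nampt, Rarres2 and Serpina12, and nearly as long for Agt, Apln, Lep and Adipoq, but for Retn it held 874 of 1579 bp. Adipocyte markers were read in every sample, all 7 of 7, and the 7 brown adipocyte markers summed to an RPKM of 2721 to 3409 in BAT, 78.6 to 122 in iWAT and 12.3 to 24.9 in eWAT. Some libraries stood apart: macrophage markers summed to 1846 in eWAT sample 15 against 127 to 439 in the other eWAT samples, epididymis markers to 76.1 and 70.9 in eWAT samples 14 and 15, and skeletal muscle markers to 1340 in BAT sample 12 (samples are named by the number in their title). A single row holding a nuclear copy of mitochondrial sequence took 11.8 to 12.6% of the reads in BAT and 3.70 to 7.29% in the white depots, and it is part of the total behind each RPKM. Tests were therefore made on read counts with edgeR's quasi-likelihood test and TMM normalization, which left the median of all genes at a log2 fold change of 0.01 between iWAT and BAT.

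As a view of the sequence next to the start of these genes, the 250 bases upstream of the RefSeq start (build GRCm38.p6, not the mm9 build of the read counts) were searched on both strands for the C/EBP motif TTGCNNAA, the TATA box TATAAA, the E-box CACGTG and the direct repeat of nuclear receptors (spaced by 1 base, with a free base in each arm). An entry was found for 8 of the 9 genes, all except Rarres2. The C/EBP motif occurred upstream of Lep, Retnla and Serpina12, and in 9.55% of all 27025 promoters. The TATA box occurred upstream of Retnla and Agt, in both at 30 bases before the start, and in 12.97% of all promoters. Neither the E-box, found in 6.05% of all promoters, nor the direct repeat, found in 0.333%, occurred upstream of any of the 8. The 4 windows that hold a motif are shown here, 5′ to 3′ along the gene's own strand, with the motif in capitals: Lep at chr6:29059971-29060220 (plus strand), Retnla at chr16:48842359-48842608 (plus), Agt at chr8:124569707-124569956 (minus) and Serpina12 at chr12:104044444-104044693 (minus).
Lep: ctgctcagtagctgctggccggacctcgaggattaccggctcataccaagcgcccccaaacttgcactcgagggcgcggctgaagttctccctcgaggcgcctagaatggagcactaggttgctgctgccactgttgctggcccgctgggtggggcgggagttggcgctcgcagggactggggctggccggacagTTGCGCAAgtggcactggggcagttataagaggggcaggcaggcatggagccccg
Retnla: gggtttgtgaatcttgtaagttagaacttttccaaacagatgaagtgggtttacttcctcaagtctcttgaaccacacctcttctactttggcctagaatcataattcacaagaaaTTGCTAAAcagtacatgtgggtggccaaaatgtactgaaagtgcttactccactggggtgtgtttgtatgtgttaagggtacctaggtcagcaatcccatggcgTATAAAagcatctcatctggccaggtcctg
Agt: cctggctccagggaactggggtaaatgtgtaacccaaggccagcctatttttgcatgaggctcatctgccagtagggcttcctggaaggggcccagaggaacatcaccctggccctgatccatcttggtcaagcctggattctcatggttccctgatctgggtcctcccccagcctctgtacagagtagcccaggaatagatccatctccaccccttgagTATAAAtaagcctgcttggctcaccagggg
Serpina12: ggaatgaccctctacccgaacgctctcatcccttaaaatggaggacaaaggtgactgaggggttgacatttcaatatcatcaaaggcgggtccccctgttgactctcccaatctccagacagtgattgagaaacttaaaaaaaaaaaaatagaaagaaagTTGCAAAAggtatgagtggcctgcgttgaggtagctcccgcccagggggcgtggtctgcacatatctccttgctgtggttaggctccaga
The motif of Lep started 55 bases before the gene, that of Retnla 134 bases and that of Serpina12 90 bases. The 3 genes with a C/EBP motif differed widely in level, from Lep, among the most abundant messages of white adipocytes, to Serpina12, at the limit of detection in every depot.

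In both white depots most adipokine genes were read many times more than in BAT. Of the 9 genes, 8 had enough reads to be tested, and all 8 differed between iWAT and BAT, 7 of them higher in iWAT and 1, Nampt, higher in BAT. The share of all tested genes that differed in this comparison was 67.6%, with 34.0% higher in iWAT and 33.6% higher in BAT, so that 8 of 8 called stands beside a background in which most genes differ, and 7 of 8 higher in iWAT beside 34.0%. Between eWAT and BAT again 8 of 8 differed, 7 higher in eWAT and Nampt higher in BAT, against 70.3% of all genes tested (35.6% higher in eWAT and 34.7% higher in BAT). Between iWAT and eWAT 4 of 8 differed, Nampt and Rarres2 higher in iWAT and Retnla and Agt higher in eWAT, against 25.6% of all genes (13.4% higher in iWAT and 12.3% higher in eWAT). The median log2 fold change of the 8 genes was 2.83 for iWAT over BAT and 3.41 for eWAT over BAT, where that of all tested genes was 0.01 and 0.03. Without TMM, 9107 genes were higher in iWAT and 4732 in BAT, in place of 6711 and 6626, and the median of all genes moved to 0.27. Between eWAT and BAT the numbers were 8946 and 4542 in place of 6542 and 6375, with a median of 0.36. Each of the 8 genes kept its direction and its call in both comparisons with BAT. Adipocyte markers moved with the difference between iWAT and BAT, and on read counts less evenly with that between eWAT and BAT. The RPKM of the 7 markers summed to 11110 to 16468 in iWAT, 11403 to 18468 in eWAT and 6250 to 7720 in BAT. The eWAT sums and the eWAT read counts rest on single transcript rows. On read counts, 6 of 7 were higher in iWAT than in BAT and none lower. Between eWAT and BAT 4 were higher in eWAT and 2 did not pass. The other 1, Pnpla2, had fewer reads in eWAT, by -0.57 ± 0.14 (SE, adjusted p = 0.0015, edgeR). Its mean RPKM was 452 in eWAT and 428 in BAT, so its direction depended on the measure and could not be fixed. All 5 red blood cell markers were higher in BAT than in either white depot, with sums of 637 to 1812 in BAT, 104 to 728 in iWAT and 232 to 1609 in eWAT. The part of these cells in the adipokine levels was not tested. The 3 comparisons share samples and are not independent of each other.

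**Figure D1:**
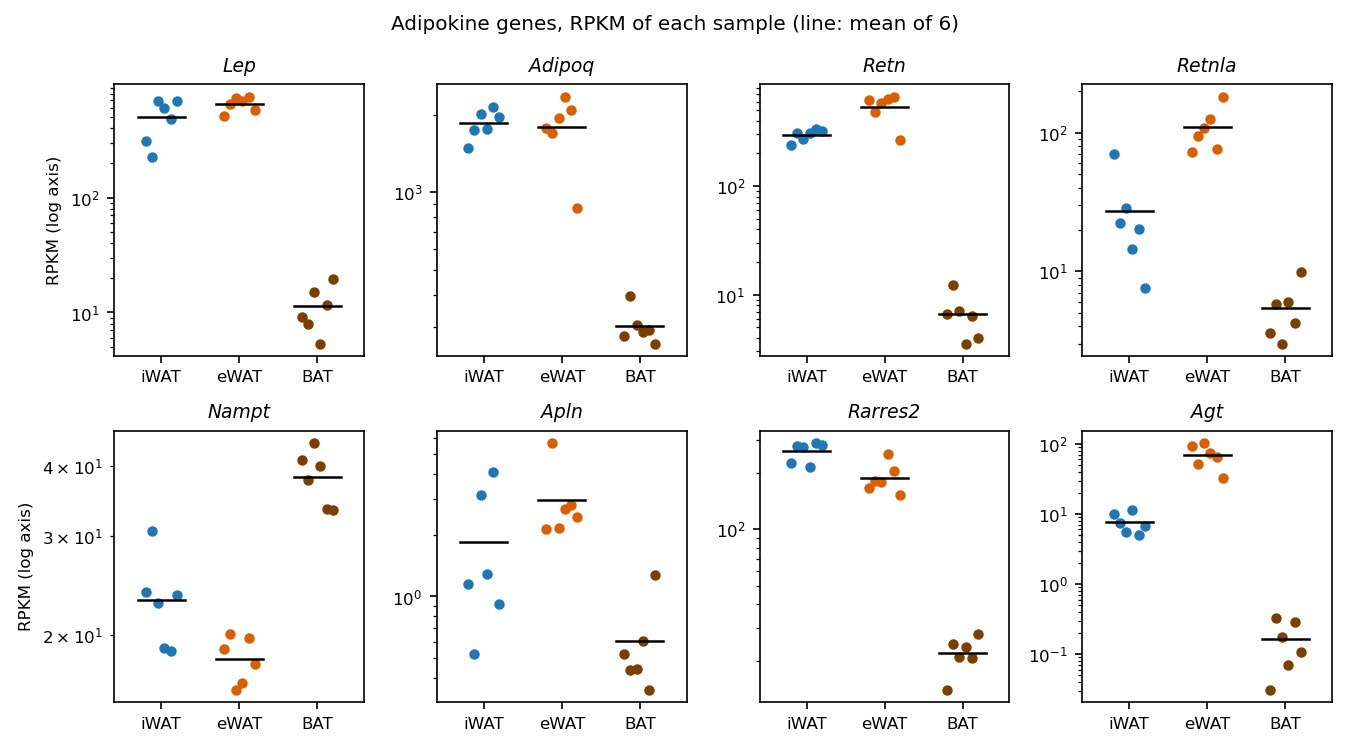
RPKM (log axis) of the adipokine genes, one panel per gene without Serpina12, with a point for each of the 6 samples per depot and a line at their mean. Lep, Adipoq, Retn, Rarres2 and Agt separate BAT from both white depots, Nampt is highest in BAT, and the eWAT values of Retn rest on a shorter row than the others.

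The ranges of reads, scaled to the total, did not overlap between iWAT and BAT for 6 of the 9 genes, against 48.4% of all tested genes, and between eWAT and BAT for 8 of 9, against 51.5%. For iWAT and eWAT they did not overlap for 2 of 9, Retnla and Agt, against 10.5%. The 9 genes together took 0.381 to 0.589% of all reads in iWAT (median 0.535%), 0.360 to 0.631% in eWAT (median 0.550%) and 0.0612 to 0.0788% in BAT (median 0.0626%). The lowest eWAT share belonged to sample 15, the library with the high macrophage markers. In bulk RNA, fewer cells of a type and less RNA per cell cannot be told apart.

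**Figure D2:**
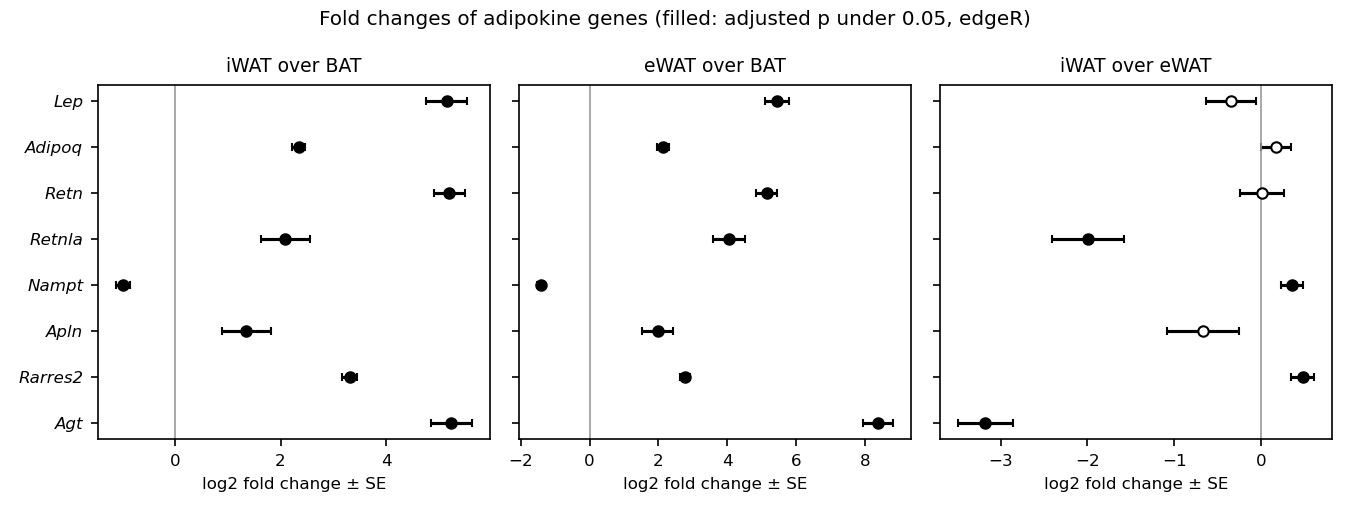
Log2 fold changes with their standard errors (horizontal bars) for the 8 tested genes in the 3 comparisons, where filled circles mark an adjusted p under 0.05. Nampt lies left of 0 and the other 7 genes right of 0 in both comparisons with BAT, and Retnla and Agt lie far left in the comparison of iWAT with eWAT.

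Leptin, with resistin and angiotensinogen, was among the 3 adipokines with the widest gap between white and brown fat. Lep lies on the plus strand of chromosome 6 of mm9, from 29010220 to 29023877. Its RPKM was 225 at the lowest, 543 at the median and 691 at the highest of the iWAT samples. The eWAT samples had 511, 671 and 751, and the BAT samples 5.36, 10.4 and 19.4. The lowest white sample was thus more than 10 times above the highest brown one. Lep was higher in iWAT than in BAT by 5.16 ± 0.39 (SE) on the log2 scale (adjusted p = 4.3e-08, edgeR) and higher in eWAT than in BAT by 5.45 ± 0.35 (adjusted p = 1.1e-10). In the comparison of the white depots the log2 difference was -0.34 ± 0.29 (adjusted p = 0.42), and 3 of the 6 iWAT samples lay within the eWAT range and the other 3 below it. The spread between iWAT samples was wide. Lep had a coefficient of variation of 39.5% there, above that of 93.0% of the genes with a mean RPKM of at least 1, with samples 11 and 7 at 225 and 308 and the other 4 from 485 to 691. In eWAT it was 14.2%, above 34.0% of such genes.

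Adiponectin was the most abundant of the 9 messages in every depot, BAT included. Adipoq, on the plus strand of chromosome 16 from 23146609 to 23158101, had an RPKM of 1485, 1862 and 2147 (lowest, median and highest) in iWAT. In eWAT these values were 868, 1863 and 2351, and in BAT 258, 289.5 and 394. By mean RPKM it ranked 18 among all genes in iWAT, 17 in eWAT and still 84 in BAT, whereas Lep went from rank 57 in iWAT and 47 in eWAT to 2290 in BAT. The log2 fold change of Adipoq was 2.35 ± 0.12 (SE) for iWAT over BAT (adjusted p = 1.1e-09, edgeR) and 2.13 ± 0.18 for eWAT over BAT (adjusted p = 6.1e-09). For iWAT over eWAT it was 0.17 ± 0.17 (adjusted p = 0.50), and the eWAT range enclosed the iWAT range. The low eWAT value came from sample 15, at 868 where the other 5 were between 1697 and 2351. A read of Adipoq may fall on the overlapping row AK018896 of the opposite strand, which lies wholly inside the gene, and whether the counting used strand is not given in the sources used here. Rows of the opposite strand also share the span of Lep (Rbm28) and of Agt (LOC100503313).

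Circulating leptin is known to rise and adiponectin to fall with fat mass, and the ratio of their messages within a sample was compared, a value that does not depend on the library total. The RPKM of Lep divided by that of Adipoq was 0.129 to 0.351 in iWAT (median 0.283), 0.287 to 0.668 in eWAT (median 0.368) and 0.0187 to 0.0752 in BAT (median 0.0364). All 12 white samples lay above all 6 BAT samples. The mean log2 ratio was higher in iWAT than in BAT by 2.84 and higher in eWAT than in BAT by 3.43. For both the exact two-sided permutation test gave p = 0.00216, the smallest it can give for 6 against 6 samples, and an adjusted p of 0.00325 over the 3 comparisons. The difference of iWAT from eWAT was -0.60 (exact permutation p = 0.0758). Both comparisons of eWAT depend on the way its reads are counted. As a ratio of read counts the difference of iWAT from eWAT was -0.66 (exact permutation p = 0.0455), and with the reads of all transcript rows added up it turned to 0.85 (exact permutation p = 0.0281). With the rows added up, that of eWAT from BAT became 1.99 in place of 3.43 (exact permutation p = 0.00216). Adipoq is listed with 7 transcript rows and Lep with 4, so that adding rows counts a read of Adipoq more often than a read of Lep.

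**Figure D3:**
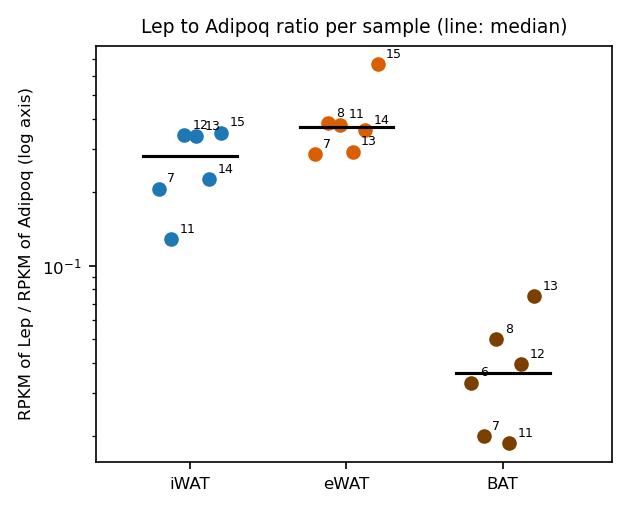
Ratio of the RPKM of Lep to that of Adipoq (log axis) in each sample, numbered as in the sample titles, with a line at the median of the 6 samples of a depot. The BAT samples lie between 0.0187 and 0.0752, the iWAT samples between 0.129 and 0.351, and eWAT sample 15 stands above the other eWAT samples at 0.668.

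Resistin and resistin-like molecule alpha belong to a family of small cysteine-rich secreted proteins. Resistin, encoded by Retn, is made by mouse adipocytes and opposes insulin action, and the product of Retnla, also called FIZZ1, is best known as a product of alternatively activated macrophages and is found in white fat as well. Retn lies on the plus strand of chromosome 8, from 3655770 to 3660110. Its rows differ in length, so reads scaled to the total (RPM) are given. They were 378, 489 and 534 (lowest, median and highest) in iWAT and 231, 523 and 580.5 in eWAT. In BAT they were 5.60, 10.3 and 19.6, far below either white depot. Retn differed by a log2 fold change of 5.20 ± 0.29 (SE) for iWAT over BAT (adjusted p = 2.2e-09, edgeR) and 5.14 ± 0.30 for eWAT over BAT (adjusted p = 3.8e-11). For iWAT over eWAT it was 0.01 ± 0.25 (adjusted p = 0.97). When reads per base of the row were compared instead, it became -0.84 ± 0.26 (adjusted p = 0.0098), since the eWAT row is shorter than the merged row, so a level of Retn in eWAT relative to iWAT could not be fixed. Retn varied little between iWAT samples, with a coefficient of variation of 11.9%, above that of 35.5% of the genes with a mean RPKM of at least 1.

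Retnla varied more between iWAT samples than any other of the 8 tested genes, with a coefficient of variation of 81.8%, above that of 98.8% of the genes with a mean RPKM of at least 1. On the plus strand of chromosome 16 from 48842665 to 48844574, it had an RPKM of 7.56, 21.3 and 70.4 (lowest, median and highest) in iWAT. The eWAT values were 72.5, 102 and 182, and those of BAT 3.01, 5.00 and 9.81. Every eWAT sample lay above every iWAT sample, the gap being small because iWAT sample 7 stood at 70.4 while the other 5 were between 7.56 and 28.6. The ranges of iWAT and BAT overlapped, since the lowest iWAT sample was below the highest BAT sample. The log2 fold change was 4.04 ± 0.46 (SE) for eWAT over BAT (adjusted p = 3.2e-07, edgeR), 2.09 ± 0.46 for iWAT over BAT (adjusted p = 0.0011) and -1.99 ± 0.42 for iWAT over eWAT (adjusted p = 0.0019).

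Markers of macrophages moved with Retnla between the white depots, and less clearly between iWAT and BAT. All 7 markers (Emr1, Cd68, Csf1r, Lyz2, Itgam, Mrc1 and Cd163) were read in every sample, and their RPKM summed to 23.3 to 129 in iWAT, 127 to 1846 in eWAT and 20.9 to 49.6 in BAT. Of the 7, 5 were higher in eWAT than in iWAT and none lower, against 12.3% of all genes higher in eWAT. Between iWAT and BAT 3 were higher in iWAT, none lower, and 4 did not pass. That is near the 34.0% of all genes higher in iWAT and below the 67.6% called. The sample with the highest sum was also the one with the highest Retnla in each depot: iWAT sample 7, eWAT sample 15 and BAT sample 13. The 6 fibroblast and progenitor markers, all read in every sample, had their highest sum in the same 3 samples, 92.8 in iWAT sample 7, 113 in eWAT sample 15 and 30.4 in BAT sample 13, with depot ranges of 55.9 to 92.8, 46.7 to 113 and 20.9 to 30.4. Col3a1 and Col1a1 were the largest parts, with a mean RPKM of 43.0 and 21.9 in iWAT. On read counts these markers went both ways. Between iWAT and BAT 2 were higher in iWAT, 3 were higher in BAT and 1 did not pass. Between iWAT and eWAT 2 were higher in iWAT, 3 were higher in eWAT and 1 did not pass. The part of either cell type in the Retnla levels was not tested. Without eWAT sample 15, the log2 fold change of Retnla was -1.77 ± 0.41 for iWAT over eWAT (adjusted p = 0.0041, edgeR) and 3.82 ± 0.44 for eWAT over BAT (adjusted p = 5.0e-07). Without iWAT sample 7 it was -2.56 ± 0.34 for iWAT over eWAT (adjusted p = 5.1e-05) and 1.53 ± 0.33 for iWAT over BAT (adjusted p = 0.0011). In eWAT sample 15, where Retnla was highest, Adipoq, Retn, Rarres2 and Agt each had their lowest eWAT value, and Lep, at 579, its next to lowest.

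**Figure D4:**
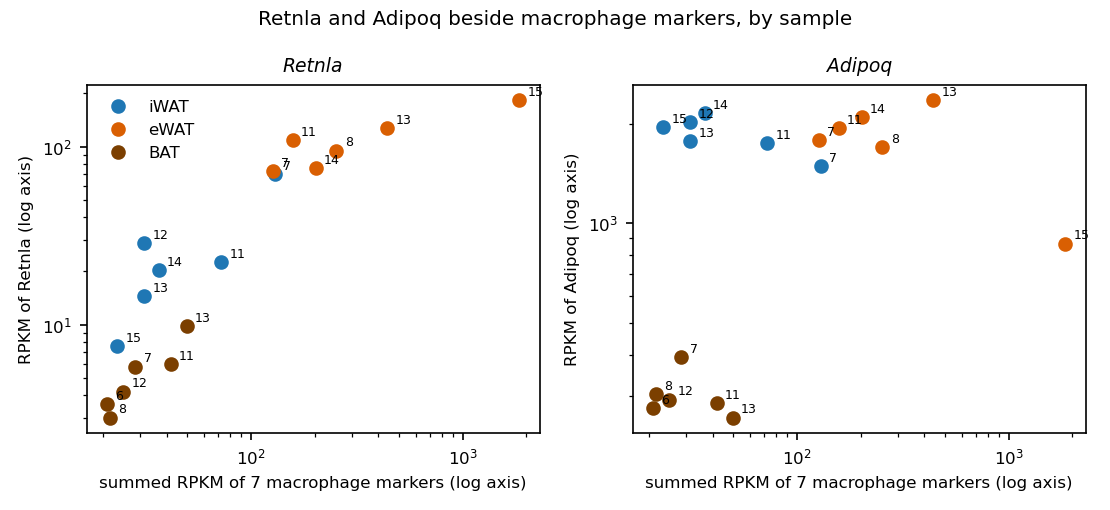
RPKM of Retnla (left) and Adipoq (right) against the summed RPKM of 7 macrophage markers, all on log axes, with a point for each sample numbered as in its title. The highest Retnla of each depot lies at the highest marker sum of that depot, and eWAT sample 15, at a sum of 1846, has the highest Retnla and the lowest Adipoq of the eWAT samples.

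Chemerin, encoded by Rarres2, attracts immune cells that carry its receptor and acts on adipocyte differentiation. Rarres2, on the minus strand of chromosome 6 from 48519697 to 48522669, had an RPKM of 216, 276 and 287 (lowest, median and highest) in iWAT. In eWAT the values were 152, 180.2 and 251, and in BAT 13.96, 22.4 and 27.9. Both white depots thus lay clear of BAT, and they overlapped each other. Rarres2 differed by a log2 fold change of 3.31 ± 0.14 (SE) for iWAT over BAT (adjusted p = 1.4e-10, edgeR), 2.78 ± 0.14 for eWAT over BAT (adjusted p = 4.8e-12) and 0.48 ± 0.13 for iWAT over eWAT (adjusted p = 0.012). With eWAT samples 14 and 15 and BAT sample 12 left out, the last became 0.45 ± 0.15 (adjusted p = 0.048). This gene has the same row in all files, but 1025 bp of its span are shared with Lrrc61 on the opposite strand. With the eWAT transcript rows of every gene added up, its log2 fold change was 1.96 for eWAT over BAT and 1.33 for iWAT over eWAT, both still past the threshold.

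Nampt was the exception to the higher white levels. It encodes nicotinamide phosphoribosyltransferase, the rate-limiting enzyme of the salvage of nicotinamide to NAD, which is also released from cells under the name visfatin. Nampt lies on the plus strand of chromosome 12 from 33505200 to 33538234 and has the same row in all files, and GENCODE vM1 places a noncoding gene, Gdap10, inside its span on the same strand. Its RPKM was 18.8, 23.2 and 30.6 (lowest, median and highest) in iWAT. The eWAT samples had 16.0, 18.4 and 20.1, and the BAT samples 33.3, 38.9 and 43.8. Every BAT sample lay above every white sample. The log2 fold change was -0.996 ± 0.13 (SE) for iWAT over BAT (adjusted p = 1.3e-05, edgeR) and -1.40 ± 0.13 for eWAT over BAT (adjusted p = 1.4e-08), and without TMM -0.73 ± 0.12 and -1.07 ± 0.11. Between iWAT and eWAT the value was 0.36 ± 0.13 (adjusted p = 0.042), and this call did not hold when single samples were left out: the adjusted p was 0.050 to 0.12 without iWAT sample 7, 11, 12 or 15 or eWAT sample 8, 11, 13 or 15. Nampt was lowest in variation among the 9 genes in eWAT, with a coefficient of variation of 9.51%, above 12.97% of the genes with a mean RPKM of at least 1.

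Apelin, encoded by Apln, is a peptide that widens vessels through the receptor Aplnr and is made by adipocytes and by endothelial cells. Apln, on the minus strand of chromosome X from 45378323 to 45388030, was the least abundant of the 8 tested genes in the white depots. Its RPKM was 0.521, 1.22 and 4.06 (lowest, median and highest) in iWAT, from 42 to 406 reads. In eWAT it was 2.14, 2.58 and 5.64, and in BAT 0.348, 0.482 and 1.27, from 34 to 119 reads. All eWAT samples lay above all BAT samples, whereas iWAT reached from inside the BAT range into the eWAT range. The log2 fold change was 1.97 ± 0.44 (SE) for eWAT over BAT (adjusted p = 6.2e-04, edgeR), 1.35 ± 0.46 for iWAT over BAT (adjusted p = 0.019) and -0.67 ± 0.42 for iWAT over eWAT (adjusted p = 0.26). With the transcript rows added up, the value for eWAT over BAT was 1.15 (adjusted p = 0.020, edgeR). Both comparisons of iWAT turned on sample 14, the highest of its depot: without it the value was 0.96 over BAT (adjusted p = 0.056) and -1.09 over eWAT (adjusted p = 0.049). The summed RPKM of 6 endothelial markers was 54.7 to 308 in iWAT, 142 to 323 in eWAT and 48.6 to 118 in BAT. It was highest in iWAT sample 14 and eWAT sample 8, the samples with the highest Apln of those depots, and lowest in iWAT sample 11, the one with the lowest Apln. In BAT this did not hold: the highest sum was that of sample 11 (118), while the highest Apln was that of sample 13, with a sum of 93.8. On read counts, 1 of the 6 endothelial markers was higher in eWAT than in BAT and 5 did not pass. Between iWAT and BAT 1 was higher in iWAT, 2 were higher in BAT and 3 did not pass. Between iWAT and eWAT all 6 did not pass. The part of endothelial cells in the Apln levels was not tested.

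Of the 9 genes, that of angiotensinogen had the largest log2 difference between the white depots. Agt encodes the precursor from which renin and angiotensin-converting enzyme make angiotensin II, and fat is a known source of it beside the liver. It lies on the minus strand of chromosome 8 from 127080434 to 127093607. In eWAT its RPKM was 32.6, 69.6 and 102 (lowest, median and highest). In iWAT it was 5.04, 7.03 and 11.3, and in BAT 0.0306, 0.143 and 0.324, the last from 2 to 21 reads per sample. The 3 depots did not overlap with each other. Agt differed by a log2 fold change of -3.18 ± 0.32 (SE) for iWAT over eWAT (adjusted p = 1.1e-06, edgeR), 5.24 ± 0.39 for iWAT over BAT (adjusted p = 4.1e-08) and 8.37 ± 0.44 for eWAT over BAT (adjusted p = 6.7e-12). Mesothelial markers other than Lrrn4 moved with Agt between the white depots. The RPKM of all 6 summed to 16.5 to 32.5 in eWAT, with 6 of 6 at 3 reads or more in every sample. In iWAT it summed to 3.71 to 4.59, with 1 or 2 of 6 at 3 reads or more and Msln and Upk1b at 0. Lrrn4 was the largest part of both sums, with a mean RPKM of 15.3 in eWAT and 4.13 in iWAT. The RPKM of eWAT rests on single transcript rows, which can be shorter than merged rows. On read counts, 3 of the 4 markers that could be tested were higher in eWAT, against 12.3% of all genes tested. The other, Lrrn4, had more reads in iWAT, by 0.52 ± 0.12 (SE, adjusted p = 0.0042, edgeR). By RPKM it was higher in eWAT, so its direction between the white depots could not be fixed. The highest and lowest eWAT sums belonged to samples 11 and 15, which also had the highest and lowest Agt of that depot. The samples between did not keep this order. Sample 8 had a sum of 23.2 and an Agt RPKM of 52.4, while sample 7 had 21.0 and 93.8. In BAT the sum was 11.1 to 13.4, from Lrrn4 as the sole marker at 3 reads or more. The part of mesothelial cells in the Agt levels was not tested. The few reads in BAT leave its level there loosely known, since the coefficient of variation was 71.9%. Without eWAT samples 14 and 15 and BAT sample 12 the value for iWAT over eWAT was -3.38 ± 0.29 (adjusted p = 1.1e-06).

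Serpina12 encodes vaspin, a serine protease inhibitor first described in visceral fat of obese rats. Its row, on the minus strand of chromosome 12 from 105266979 to 105282653, held 0 to 4 reads in each iWAT sample, 1 to 3 in each eWAT sample and 1 to 4 in each BAT sample. A count of 3 reads corresponds to an RPKM of 0.0236 to 0.0355 across the samples, and only counting error is covered by this limit. The reads were too few for a test, and a difference between depots was not detectable at this depth.

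Within a depot the genes could be ordered by RPKM, a level per length of row. The place of Retn rests on a row of 1579 bp in iWAT and BAT and of 874 bp in eWAT, and depends on that length. In iWAT the order by mean was Adipoq, Lep, Retn, Rarres2, Retnla, Nampt, Agt, Apln and Serpina12, where Lep and Retn, Retn and Rarres2, and Retnla and Nampt overlapped in range. The eWAT order was Adipoq, Lep, Retn, Rarres2, Retnla, Agt, Nampt, Apln and Serpina12, with overlap of Lep and Retn, Rarres2 and Retnla, and Retnla and Agt. BAT had a different order, Adipoq followed by Nampt, Rarres2, Lep, Retn, Retnla, Apln, Agt and Serpina12. There, Rarres2 and Lep, Lep and Retn, Retn and Retnla, and Agt and Serpina12 overlapped. Nampt, in position 6 in iWAT and 7 in eWAT, was thus in position 2 in BAT, above Lep in all 6 samples.

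The same samples were often at the end of several ranges. Among the BAT samples, sample 13 had the highest Lep, Retnla, Apln and Rarres2 and the lowest Adipoq and Nampt. Among the iWAT samples, sample 11 had the lowest Lep and Apln and the highest Nampt, and sample 7 the lowest Adipoq and Retn and the highest Retnla. BAT sample 7 had the highest Adipoq, Retn and Agt of its depot. Adipoq and Retn thus shared their lowest sample in both white depots (iWAT sample 7 and eWAT sample 15) and their highest sample in iWAT and BAT.

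For each gene, the genes most like it were sought by the Pearson correlation of log2(RPKM + 0.1), centred on the depot mean, over all 18 samples and about 10337 genes whose mean RPKM was 1 or more in each depot. These values are descriptions, and all genes of a sample are scaled by the same library total. The closest to Lep were Hpgd (r = 0.88), Mat2b (0.87) and Ikbkg (0.86), with Hpgd at 0.93 within iWAT, 0.45 within eWAT and 0.91 within BAT. Adipoq was closest to AK018896 (0.996), the row inside its own span, and then to Eif4ebp1 (0.94) and 1810020D17Rik (0.93). The closest to Retn were Gm12824 (0.93), Car5b (0.91), which encodes a mitochondrial carbonic anhydrase, and Gstz1 (0.89). Retnla was most like Rnase4 (0.90), Fn1, the fibronectin gene (0.88), and Timp2, an inhibitor of matrix proteases (0.85). Apln was most like C1qtnf9 (0.92), F2r, the gene of a thrombin receptor (0.92), and Fam55d (0.91). Nampt was most like Ganab (0.85), 1700064E03Rik (0.84) and Ccrn4l (0.83), and Agt most like B3galt2 (0.84), Pigl (0.83) and Gpt2 (0.82). Rarres2 had the weakest likeness, with the overlapping Lrrc61 (0.77), Phgdh (0.76) and 0610037L13Rik (0.75).

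The genes with which the adipokines work were described from lists, with the same fits across all genes. For eWAT these rows can be shorter than the merged rows, so only fold changes on read counts are given there. These fold changes are not free of the row either, since a single transcript row can hold fewer reads than its gene. A gene called higher in iWAT or BAT than in eWAT can therefore owe this to the row. Of 15 genes of receptors and binding proteins, 11 could be tested between iWAT and BAT, where 5 were higher in iWAT and 2 in BAT, against 34.0% and 33.6% of all genes tested. Cmklr1, the chemerin receptor, was the one with the largest change, at an RPKM in iWAT of 43.2 ± 12.2 and in BAT of 1.40 ± 0.154 (SD, n = 6 each). Its log2 fold change was 4.67 ± 0.18 (SE, adjusted p = 6.9e-11, edgeR) over BAT, so that both chemerin and its receptor gene were higher in iWAT adipocytes than in BAT. Tlr4, a receptor of bacterial lipopolysaccharide to which resistin has been reported to bind, was higher in iWAT by 2.03 ± 0.19 (adjusted p = 3.1e-07). Adipor2, an adiponectin receptor, did not pass the test between iWAT and BAT (-0.16 ± 0.14, adjusted p = 0.31). In iWAT against eWAT 1 gene of the 12 tested was higher in iWAT and 4 in eWAT, against 13.4% and 12.3% of all genes.

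Of 12 genes of the renin-angiotensin system other than Agt, 9 could be tested between iWAT and eWAT. There, 7 were higher in eWAT, in the direction of Agt, 1 was higher in iWAT and 1 did not pass, against 12.3% of all genes higher in eWAT and 13.4% higher in iWAT, and the median log2 fold change was -0.87 where that of all genes was 0.00. Enpep, the aminopeptidase that turns angiotensin II into angiotensin III, differed by -1.71 ± 0.22 (SE, adjusted p = 2.4e-05, edgeR). Ctsd, a lysosomal protease able to cleave angiotensinogen, differed by -0.59 ± 0.19 (adjusted p = 0.031), and Agtrap, a binding protein of the angiotensin receptor, by -0.96 ± 0.27 (adjusted p = 0.014). Mme, the gene of neprilysin, was the one higher in iWAT, by 1.08 ± 0.17 (adjusted p = 1.9e-04). Against BAT, 3 of 8 were higher in iWAT and 1, Agtrap, was higher in BAT, near or below the background of 34.0% and 33.6%. Macrophage markers also differed between the white depots, with 5 of 7 higher in eWAT and none in iWAT. Their part in the values of the renin-angiotensin genes was not tested.

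Of 13 genes of NAD salvage and use other than Nampt, 7 were higher in BAT than in iWAT, in the direction of Nampt, 3 were higher in iWAT and 3 did not pass, against 33.6% of all genes higher in BAT and 34.0% higher in iWAT. The share called in either direction is thus near the background of 67.6%. The median log2 fold change was -0.65, where that of all genes was 0.01. Parp1, which consumes NAD in DNA repair, differed by -0.65 ± 0.07 (SE, adjusted p = 2.2e-06, edgeR). The largest change went the other way: Nnmt, which methylates nicotinamide and so withdraws it from salvage, was listed at an RPKM in iWAT of 129 ± 18.3 and in BAT of 6.41 ± 1.48 (SD, n = 6 each), a log2 fold change of 4.06 ± 0.18 (adjusted p = 1.8e-10). Nmnat2, an enzyme of the step after Nampt, was higher in iWAT by 2.602 ± 0.34 (adjusted p = 1.1e-05), at an RPKM of 0.236 ± 0.0763 (SD, n = 6). Nadk, the NAD kinase, did not pass (-0.03 ± 0.08, adjusted p = 0.74).

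Of 6 genes for the folding and secretion of adiponectin, 5 were higher in iWAT than in BAT, 1 did not pass, and none was higher in BAT, against 34.0% of all genes higher in iWAT. P4hb, a protein disulfide isomerase, differed by 2.15 ± 0.08 (SE, adjusted p = 4.0e-11, edgeR), Plod3, a lysyl hydroxylase, by 1.65 ± 0.10 (adjusted p = 7.6e-09), Hspa5, a chaperone of the endoplasmic reticulum, by 1.199 ± 0.14 (adjusted p = 3.4e-06), and Gstk1, known as an adiponectin assembly protein, by 0.83 ± 0.07 (adjusted p = 1.3e-07). Of 10 genes of transcription factors of adipokine genes, 7 were higher in iWAT than in BAT and 1 was higher in BAT, against 34.0% and 33.6% of all genes. Cebpd and Fosl2 had the largest changes, 4.55 ± 0.23 (adjusted p = 8.6e-10) and 3.31 ± 0.26 (adjusted p = 6.2e-08). Cebpa differed by 0.59 ± 0.13 (adjusted p = 0.0012) and Pparg by 0.23 ± 0.09 (adjusted p = 0.038), and Srebf1 did not pass (0.56 ± 0.24, adjusted p = 0.055). The change of Pparg is smaller than the 0.27 by which leaving out TMM moved the median of all genes.

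Of 31 further factors secreted by fat, 27 could be tested between iWAT and BAT, with 18 higher in iWAT, 3 higher in BAT and 6 that did not pass, against 34.0% and 33.6% of all genes. The median log2 fold change of 2.25 was close to that of the adipokine genes, 2.83, and far from that of all genes, 0.01. Cfd, which encodes adipsin, was listed at an RPKM in iWAT of 5142 ± 1322 and in BAT of 192 ± 139 (SD, n = 6 each), a log2 fold change of 4.49 ± 0.39 (SE, adjusted p = 1.7e-07, edgeR), and was thus above Adipoq in level in iWAT. Hp, the haptoglobin gene, differed by 1.98 ± 0.11 (adjusted p = 2.6e-09) and Angptl4, an inhibitor of lipoprotein lipase, by 2.25 ± 0.16 (adjusted p = 3.0e-08). Inflammatory genes had the largest changes, Ptx3 with 10.74 ± 0.67 (adjusted p = 5.7e-09) and Il6 with 10.47 ± 0.81 (adjusted p = 5.4e-08). Their BAT levels were an RPKM of 0.122 ± 0.0801 (SD, n = 6) and 0.0106 ± 0.00931 (SD, n = 6), and here too the digestion of the white depots cannot be told apart from the depot. Between iWAT and eWAT 5 of the 27 were higher in iWAT and 6 in eWAT, against 13.4% and 12.3% of all genes.

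**Figure D5:**
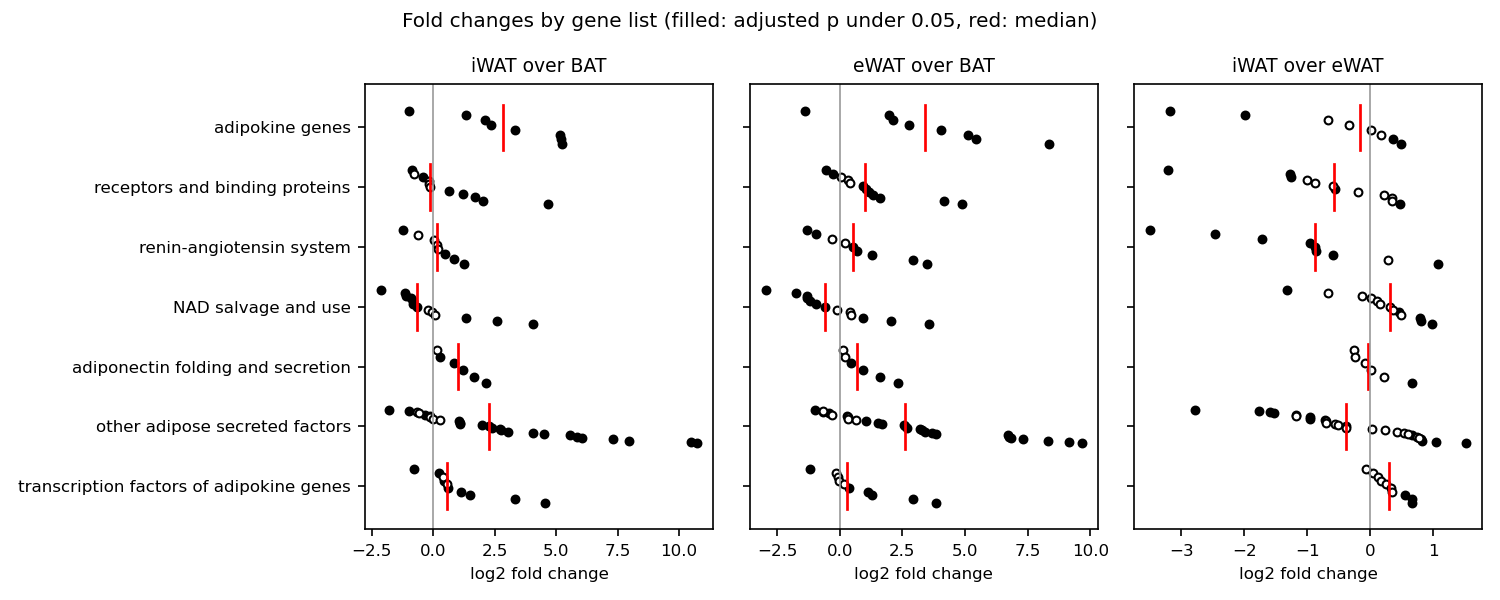
Log2 fold changes of every tested gene of the adipokine list and of 6 lists of related genes in the 3 comparisons, filled where the adjusted p was under 0.05, with a red line at the median of each list. The adipokine and other secreted factor lists have medians of 2.83 and 2.25 for iWAT over BAT, the NAD list has a median of -0.65 there, and the renin-angiotensin list lies mostly left of 0 for iWAT over eWAT.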

How the data were processed

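RNA was measured in 18 samples, 6 per depot, grouped by the depot in their labels. Per the submitters' processing notes, cutadapt 1.16 and HISAT2 2.1.0 were used with the mm9 genome, and the study's methods name the Genomatix Genome Analyzer. The counting software, its use of strand and the annotation are not given in the sources used here. The authors deposited for each row a read count, which is not normalized, and an RPKM, found to be that count per kilobase of row, scaled by 1 read total for each sample. Reads without molecular identifiers make every floor a matter of counting error only. Whether samples came from separate mice is not stated for each of them, so p-values measure the spread between these samples.

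From these files, iWAT and BAT were compared on all merged gene rows of 12 samples, and eWAT on 1 row per symbol of 18 samples (merged row in iWAT and BAT, most-read transcript in eWAT). Rows that reached 10 reads in 6 or more samples were tested with edgeR 4.0.16 (R 4.3.3; glmQLFit, glmQLFTest, TMM, library size from the total used for RPKM) and called at a Benjamini-Hochberg adjusted p under 0.05 over all rows tested. The standard error was derived from the F statistic. The code was tested on simulated data. The Lep to Adipoq ratio was compared by exact two-sided permutation (scipy 1.17.1, numpy 2.4.6, pandas 2.3.3, Python 3.11.15), adjusted over 3 comparisons. The members and the lists were chosen with earlier results of these data known. Of each list, up to 3 genes with the highest mean RPKM and up to 2 with the largest change between iWAT and BAT were named. Alternatives were DESeq2 1.42.0, limma 3.58.1 on log2(RPKM + 0.1) or log2(RPKM + 1), no TMM, other filters, other rows, row length as an offset, the title number as a block and leaving out each sample. Whether samples with the same title number came from the same mouse is not stated, and the main fits treat the samples as unpaired. Deviations of same-numbered samples correlated at a mean of 0.064 (iWAT with BAT), -0.046 (eWAT with BAT) and -0.13 (iWAT with eWAT) over 12573 genes. Of the 4 pairs of iWAT with BAT, 2 were over 0.1, and of the pairs with eWAT none was. Such correlations cannot decide on pairing, since the depots also differ in preparation or in the kind of row. Promoter windows came from RefSeq (GRCm38.p6), and coordinates of genes from the deposited rows (mm9).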

Additional observations from a re-analysis of the deposited data

Results flagged for a closer look

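In 5 of 27 groups of 6 values (the 8 tested adipokine genes and the Lep to Adipoq ratio in 3 depots), 1 sample stood apart from the other 5 by Dixon's test, where chance alone would give about 1.35. Adipoq had an RPKM of 394 in BAT sample 7 and 258 to 304 in the other BAT samples. Retnla had an RPKM of 70.4 in iWAT sample 7, which also had the highest marker sums of its depot for macrophages (129) and for fibroblasts and progenitors (92.8), and 7.56 to 28.6 in the others. Apln stood at 5.64 in eWAT sample 8, which also had the highest endothelial marker sum of its depot (323), where the others had 2.14 to 2.81. In BAT, Apln stood at 1.27 in sample 13 and at 0.348 to 0.603 in the others, while the endothelial marker sum of sample 13 (93.8) was below those of BAT samples 11 (118) and 7 (97.2). The Lep to Adipoq ratio was 0.668 in eWAT sample 15, which had the highest macrophage marker sum of all samples (1846) and the lowest Adipoq of its depot, and 0.287 to 0.384 in the other eWAT samples. The part of these markers in the values was not tested.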

How the results depend on the processing

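Limits: comparisons with BAT share depot with preparation, and those with eWAT share depot with the kind of row. With a few reads per BAT sample, Agt is loosely known there. With 6 samples per depot, small differences can be missed.

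Of the values of single adipokine genes under an alternative other than leaving out 1 sample, 243 kept direction and call, 9 reversed and 5 lost the call. All reversals were between iWAT and eWAT. With the transcript rows of eWAT added up, Lep turned to 0.38 (adjusted p = 0.25), Apln to 0.18 (0.71) and Adipoq to -0.62 (adjusted p = 0.0045, edgeR), where the construction counts a read once per transcript. For eWAT over BAT the same sums kept all 8 calls and moved Lep to 4.75, Adipoq to 2.94, Apln to 1.15 and Rarres2 to 1.96. Retn, at 0.01, turned to -0.0019 without TMM, -0.0034 with a mean RPKM of at least 1, -0.078 without eWAT samples 14 and 15 and BAT sample 12 (chosen after seeing the data), -0.80 with limma at either pseudocount and -0.84 with the row length as offset. Nampt, iWAT over eWAT, lost its call without a filter (0.36, adjusted p = 0.053), with a mean RPKM of at least 1 (0.34, 0.057), with only the 2 depots (0.35, 0.067) and without the 3 libraries (0.39, 0.073).

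With rows identical in both kinds of file, 3590, 3888 and 737 genes differed (iWAT and BAT, eWAT and BAT, iWAT and eWAT), in place of 13337, 12917 and 4714, and 3 adipokine genes in each comparison with BAT, since only Nampt, Rarres2 and Retnla could then be tested. Between iWAT and eWAT, 9617 and 9380 genes differed with limma (pseudocounts 0.1 and 1), 13584 with summed transcript rows and 9667 with the row length as offset; the cause was not tested. The Lep to Adipoq ratio between iWAT and eWAT became -0.66 by read counts (exact permutation p = 0.0455) and 0.85 with summed rows (exact permutation p = 0.0281), and that between eWAT and BAT became 1.99 with summed rows.

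The title number as a replicate block gave 11711, 11401 and 3153 genes and took away 1 adipokine call, Apln for iWAT over BAT (0.85 ± 0.53, adjusted p = 0.20).

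Leaving out 1 sample at a time gave 12307 to 13291, 12087 to 12782 and 3881 to 5157 genes, and 7 to 8, 8 to 8 and 3 to 5 adipokine genes. The ratio ranged from 2.66 to 3.06, 3.25 to 3.65 and -0.69 to -0.40 on the log2 scale, and Retn for iWAT over eWAT from -0.12 to 0.083. It took away 9 calls of single adipokine genes, 8 of Nampt for iWAT over eWAT and 1 of Apln for iWAT over BAT, and added 1, of Apln for iWAT over eWAT.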
